A study of Homo sapiens with 2 samples.

Results

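UGT3A1 and UGT3A2 are the 2 genes of the human UGT3A family of UDP-glycosyltransferases, and they lie side by side on the minus strand of chromosome 5. They were taken by symbol from the gene tables of A673 cells, where they make up 2 of 23352 genes, together with every exon record under their names, 10 for UGT3A1 and 7 for UGT3A2 of 230470 records in all. The pair was picked because exon reads of UGT3A1 stood apart in an earlier look at these libraries, so the exon and gene values that follow are a description of chosen genes and not evidence that the choice was right. UDP-glycosyltransferases are membrane enzymes of the endoplasmic reticulum that move a sugar from a UDP-sugar donor to small lipophilic molecules such as steroids, bile acids and drugs, which makes them more soluble. Most members of the wider family use UDP-glucuronic acid. UGT3A1 is known to use UDP-N-acetylglucosamine and UGT3A2 to use UDP-glucose and UDP-xylose, and kidney is a tissue where both have been described.

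The cells were A673, an established human Ewing sarcoma line driven by the fusion protein EWS/FLI1, carrying either the RUNX3 hairpin sh813 or the non-target hairpin shNT after lentiviral transduction. Virus came from HEK 293T cells after 72 hours and was applied with 6 µg/mL polybrene, and both groups were then selected with 0.4 µg/mL puromycin for 6 days. Each group has 1 library, titled as a pool, so no difference has a replicate check, none was tested and no p-value was computed. In both libraries the sample title names one hairpin and the shRNA label the other. They are named here by title, as the 813 library and the NT library, and going by the shRNA label would turn every direction round. RUNX3 had 387 pairs in the 813 library and 1391 pairs in the NT library, a log2 fold of -1.92 (-2.09 to -1.76), which goes with the titles.

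Gene counts came to 23342660 read pairs in the 813 library and 24326135 in the NT library, and exon counts to 63565338 and 66641074 reads. CPM are pairs scaled to the library size with TMM factors, and RPKM values are those the authors deposited. Intervals of folds are exact 95% binomial intervals on the 2 counts, those of CPM are exact Poisson intervals, and all cover counting error only. To be called, a gene or record needed a fold of at least 2 and an interval wholly beyond 1.5-fold. All 8 markers listed for Ewing sarcoma cells were measured in both libraries, from 7.69 CPM for NPY1R to 4026 CPM for CD99, both in the 813 library. NKX2-2 and NR0B1, 2 of the 8, were called lower there, against 3.48% of the 12254 genes at 1 CPM in either library. NR0B1 was not called with plain library totals (-0.97) or the RPKM scaling (-0.98). Of 4 hepatocyte and kidney tubule markers, ALB, SLC22A6 and UMOD had 0 pairs in both libraries and APOA1 had 4 pairs in the 813 library and 3 in the NT library. Of 5 genes described as high in HEK293 cells, 2 reached 1 CPM and LHX1 had 0 pairs in both libraries. GATA3, 1 of the 2, was called lower in the 813 library, against the same 3.48% of genes. It had 1.35 CPM in the 813 library and 4.01 CPM in the NT library (log2 fold -1.56, -2.19 to -0.98). The 5 genes summed to 4.37 CPM in the 813 library and 9.30 CPM in the NT library.

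The coding sequences of the pair bear on whether reads of one gene can be told from those of the other, so they are given first. Taken from GENCODE release 29 (GRCh38), the coding parts of the transcripts UGT3A1-201 and UGT3A2-201 have 7 exons of matching coding length, 1572 bases or 524 codons including the stop, and align without a gap. They were identical at 1347 bases (85.7%), and 341 codons were the same. Of the 225 differing bases, 68 fell at the first, 46 at the second and 111 at the third codon position. Coding exons 2 and 3 were the least alike, with 80.4% and 77.4% of bases identical and no identical stretch longer than 17 and 18 bases. They are shown because the matching UGT3A1 records differed most between the libraries; capitals mark the bases at which the pair differ.
UGT3A1 coding exon 2, chr5:35988450-35988551 in GRCh38, minus strand: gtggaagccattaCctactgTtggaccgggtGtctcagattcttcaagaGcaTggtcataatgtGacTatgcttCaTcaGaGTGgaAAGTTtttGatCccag
UGT3A2 coding exon 2, chr5:36064249-36064350 in GRCh38, minus strand: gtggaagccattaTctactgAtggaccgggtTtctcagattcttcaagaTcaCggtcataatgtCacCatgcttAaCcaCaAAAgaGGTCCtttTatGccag
UGT3A1 coding exon 3, chr5:35968019-35968133 in GRCh38, minus strand: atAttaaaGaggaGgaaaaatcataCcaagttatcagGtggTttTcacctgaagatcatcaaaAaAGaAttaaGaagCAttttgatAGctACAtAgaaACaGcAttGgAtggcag
UGT3A2 coding exon 3, chr5:36051870-36051984 in GRCh38, minus strand: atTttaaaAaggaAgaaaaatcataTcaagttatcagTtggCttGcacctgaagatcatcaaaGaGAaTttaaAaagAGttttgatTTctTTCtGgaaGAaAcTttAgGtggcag

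Coding exon 1 was the most alike, with 86 of its 94 bases identical (91.5%). Its last part held a shared stretch of 47 bases. Coding exons 4, 5, 6 and 7 were identical at 88.0%, 86.2%, 82.3% and 87.0% of bases. The longest shared stretch of the whole coding sequence, 68 bases, lay in coding exon 4, and coding exon 5 ended in a shared stretch of 45 bases. Exon 1 is shown whole with the differing bases in capitals, and the shared stretch of exon 4 in lower case throughout because no base in it differs.
UGT3A1 coding part of exon 1, chr5:35991147-35991240 in GRCh38, minus strand: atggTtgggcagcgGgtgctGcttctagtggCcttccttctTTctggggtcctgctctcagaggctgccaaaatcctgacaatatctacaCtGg
UGT3A2 coding part of exon 1, chr5:36066696-36066789 in GRCh38, minus strand: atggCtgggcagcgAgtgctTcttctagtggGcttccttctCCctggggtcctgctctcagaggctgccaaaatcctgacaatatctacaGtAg
Shared stretch of coding exon 4, chr5:35965598-35965665 (UGT3A1) and chr5:36049101-36049168 (UGT3A2) in GRCh38, minus strand: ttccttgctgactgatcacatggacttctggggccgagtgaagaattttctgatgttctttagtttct

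Windows of 25 bases that were letter for letter the same at the same place in both genes numbered 23 of 70 in coding exon 1, 105 of 508 in exon 4, 21 of 208 in exon 5, 5 of 253 in exon 7 and 0 in exons 2, 3 and 6. Counting windows across exon junctions, 169 of 1548 (10.9%) were shared. Windows of 50 bases were shared at 28 of 1523 places, and windows of 75 bases at 0 of 1498. Among 206534 transcripts of GENCODE release 29, 1 gene besides the pair, AC016612.1, held a 25-base window of the UGT3A1 coding sequence, and none held one of UGT3A2. The read length is not given in the sources used here. Windows with a mismatch and the untranslated parts were not compared, so how well reads of the pair are told apart was not measured.

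**Figure D1:**
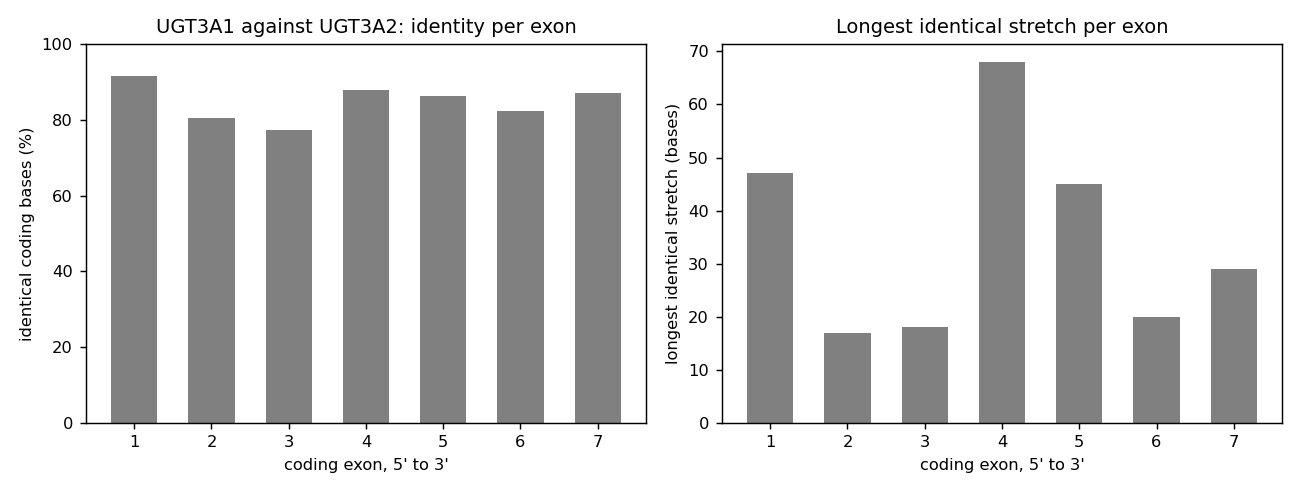
Share of coding bases identical between UGT3A1 and UGT3A2 (left, percent) and longest identical stretch (right, bases) for each of the 7 coding exons, numbered 5' to 3'. Exons 1, 4 and 5 hold stretches of 47, 68 and 45 bases, while exons 2 and 3 hold none over 18 bases.

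UGT3A2 (chr5:36035119-36067023 in hg19, the build of the files) was among the most abundant transcripts of these cells. It had 38586 pairs in the 813 library and 26384 pairs in the NT library, or 1577 CPM (counting interval 1562 to 1593) and 1137 CPM (1123 to 1150). Per length, its deposited level was 532 RPKM in the 813 library, where it ranked 82nd of 23352 genes, and 350.3 RPKM in the NT library, where it ranked 153rd. In CPM, UGT3A2 was 1.39-fold higher in the 813 library, or 0.47 on the log2 scale (0.45 to 0.50). The counting interval lies wholly above no difference, but the fold is short of the 2-fold that a call needs. In RNA from a bulk culture, more cells with the transcript and more transcript per cell cannot be told apart.

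The 7 exon records of UGT3A2 had folds close to one another. Record 1, at the 5' end (chr5:36066798-36067023 in hg19), had 6031 reads in the 813 library and 4000 in the NT library. Record 7, at the 3' end (chr5:36035119-36036076), had 32178 and 20891 reads in the same order of libraries. The other 5 records had 5189 to 21185 reads in the 813 library and 3618 to 14636 in the NT library. Log2 folds ran from 0.38 (0.30 to 0.46) at record 2 to 0.57 (0.51 to 0.63) at record 6. None of the 7 was called, against 6.22% of the 94935 records with at least 50 reads over both libraries. Per length, the records lay between 439 and 949 RPKM in the 813 library and between 280.2 and 665 RPKM in the NT library, a spread of 2.16-fold and 2.37-fold along the gene. Reads thus covered each annotated exon of UGT3A2 at a level of the same order, with record 1 the lowest and record 2 the highest in both libraries.

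UGT3A1 (chr5:35953191-36001130 in hg19) was near the limit of the gene tables. It had 12 pairs in the 813 library and 36 pairs in the NT library, or 0.491 CPM (counting interval 0.253 to 0.857) and 1.55 CPM (1.09 to 2.15). Its deposited levels were 0.0755 RPKM in the 813 library and 0.218 RPKM in the NT library, ranks 14458 and 12138 of 23352. The log2 fold was -1.62 (-2.74 to -0.68), so by its gene count UGT3A1 was called lower in the 813 library, as were 3.48% of the 12254 genes that reached 1 CPM in either library, while 8.13% were called higher and 11.6% either way. In numbers these were 427 genes lower and 996 higher, against 302 lower and 1330 higher with plain library totals. UGT3A1 reached 1 CPM only through the NT library. The call ended when plain library totals or the authors' RPKM scaling replaced TMM, each with a log2 fold of -1.49.

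The exon records of UGT3A1 went the other way. Summed over its 10 records, UGT3A1 had 12059 reads in the 813 library and 2290 reads in the NT library. That is a log2 fold of 2.32 (2.23 to 2.41) for the 813 library over the NT library. A read counted in several records would enter this sum several times and make the interval too narrow. Whether reads were so counted was not tested. Of the 9 records with at least 50 reads over both libraries, 8 were called higher and 0 lower, against 3.72% of 94935 such records called higher and 2.49% called lower, 6.22% in all. In numbers these were 3536 records higher and 2366 lower, against 4810 higher and 1668 lower with plain library totals. The pair had been chosen on these exon values, so nothing is read from that share. The remaining record, at the 3' end (record 10, chr5:35953191-35954580), had 6 reads in the 813 library and 9 in the NT library.

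From the 5' end, records 1 to 5 of UGT3A1 held nearly the same number of reads in the 813 library. Record 1 (chr5:36001070-36001130, 61 bases) had 1774 reads in the 813 library and 532 in the NT library. Record 2 (chr5:35997341-35997431, 91 bases) had 1774 and 532 reads, and record 3 (chr5:35991249-35991535, 287 bases) had 1776 and 534 reads, each with the 813 library first. These 3 records thus stood level in both libraries. Record 4 (chr5:35988552-35988653, 102 bases) had 1775 reads in the 813 library and 3 in the NT library. Record 5 (chr5:35968121-35968235, 115 bases) had 1774 reads in the 813 library and 6 in the NT library. In the NT library the level counts therefore stopped after record 3, while in the 813 library they ran on through record 5, which gives the log2 folds of 8.72 (7.03 to 12.9) at record 4 and 7.91 (6.58 to 10.4) at record 5 beside 1.66 (1.46 to 1.87) at record 1.

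A count that stays level over records of 61 to 287 bases does not scale with length. Per kilobase, the 5 level records of the 813 library ran from 6188 to 29082 reads, and the 3 of the NT library from 1861 to 8721 reads. They held 73.6% of the UGT3A1 exon reads in the 813 library (Clopper-Pearson 72.8 to 74.4) and 69.8% in the NT library (67.9 to 71.7). A read counted in several records would enter these shares several times, and both reads of a pair may be counted. The shares may then be off and their intervals too narrow, which was not tested. Along the whole gene the deposited RPKM spread 6737-fold in the 813 library and 1915-fold in the NT library, compared with 2.16-fold and 2.37-fold for UGT3A2. The 1774 reads at record 1 came to 1.88 per 100 exon reads of UGT3A2 in the 813 library, and the 532 reads to 0.847 per 100 in the NT library. How the exon counter treated a read or a pair that bridges an exon without lying in it is not given in the sources used here, and its part in the level counts was not tested.

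The 5 records on the 3' side differed from one another. Record 6 (chr5:35965488-35966019, 532 bases), which matches coding exon 4 in length, had 2328 reads in the 813 library and 439 in the NT library, a log2 fold of 2.33 (2.12 to 2.55). Record 7 (chr5:35960858-35963053, 2196 bases), whose length matches the alternative last exon of UGT3A1-207, had 277 and 10 reads, a log2 fold of 4.58 (3.46 to 6.36) for the 813 library over the NT library. Record 8 (chr5:35957290-35957521, 232 bases), the length of coding exon 5, had 425 reads in the 813 library and 124 in the NT library, a log2 fold of 1.69 (1.29 to 2.13). Record 9 (chr5:35955747-35955966, 220 bases), the length of coding exon 6, had 150 and 101 reads with the 813 library first, and its log2 fold of 0.49 (-0.04 to 1.04) was not called. Records 6, 8, 9 and 10 held fewer reads in turn in both libraries, and record 7 lay under record 8 in both. Without the 5 level records, the other 5 summed to 3186 reads in the 813 library and 683 in the NT library. That is a log2 fold of 2.14 (1.98 to 2.32). Record 6, which stays in this sum, differed from record 1 by 554 reads in the 813 library and by -93 in the NT library. Whether the level reads are counted in record 6 too was not tested, so leaving out the 5 records may not remove them.

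**Figure D2:**
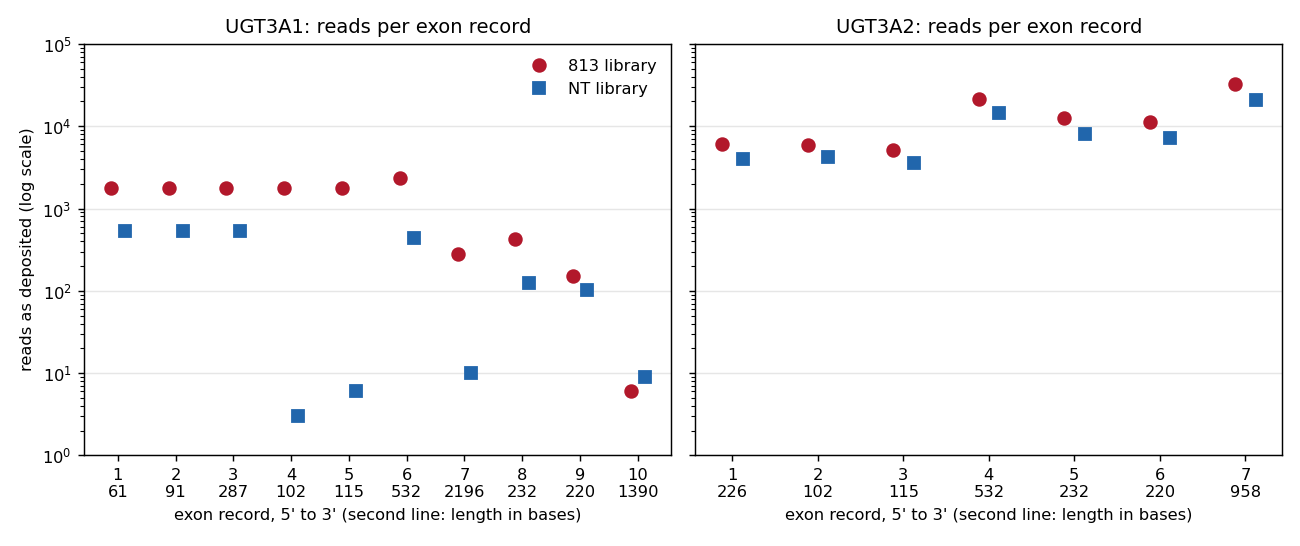
Reads as deposited (log scale) for each exon record of UGT3A1 (left) and UGT3A2 (right), numbered 5' to 3' with the record length in bases, for the 813 library (red circles) and the NT library (blue squares). UGT3A1 stays at 1774 to 1776 reads over records 1 to 5 in the 813 library and at 532 to 534 over records 1 to 3 in the NT library, where records 4 and 5 fall to 3 and 6 reads.

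**Figure D3:**
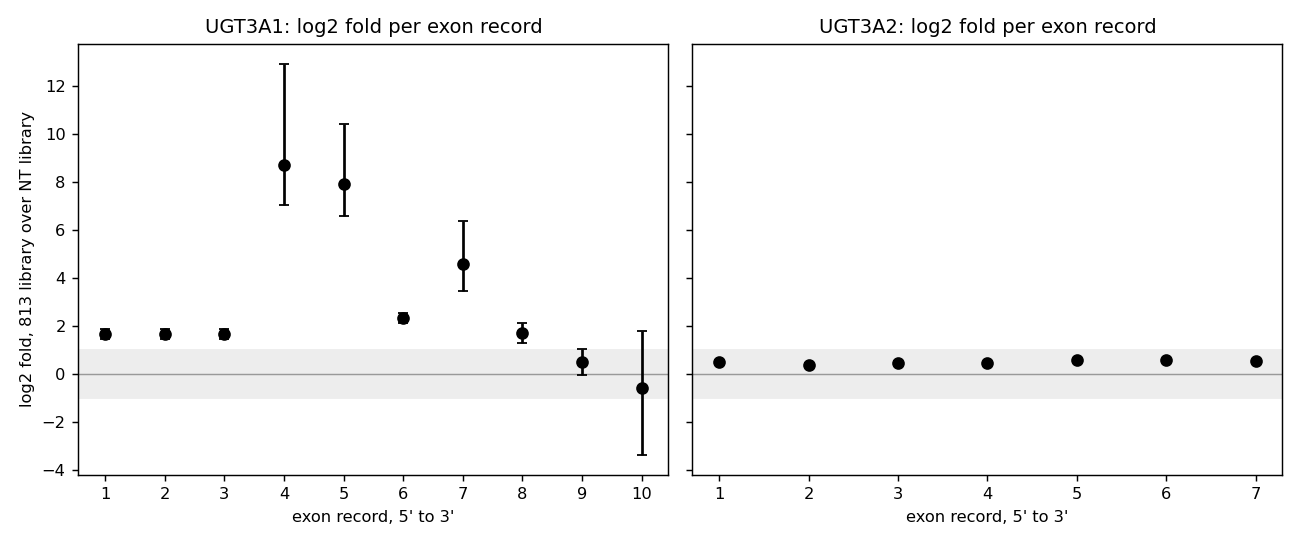
Log2 fold of reads in the 813 library over the NT library for each exon record of UGT3A1 (left) and UGT3A2 (right), numbered 5' to 3'; bars are exact 95% counting intervals and the grey band marks folds under 2. UGT3A2 stays between 0.38 and 0.57, while UGT3A1 runs from -0.59 at record 10 to 8.72 at record 4.

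The reads of the UGT3A1 records can be set beside the windows their exons share with UGT3A2. Record 3 has the length of the first exon of UGT3A1-204 and holds coding exon 1, with 23 shared windows, and had 1776 reads in the 813 library and 534 in the NT library. Records 6 and 8 match coding exons 4 and 5 in length, with 105 and 21 shared windows, and had 2328 and 425 reads in the 813 library and 439 and 124 in the NT library. Records 4 and 5 match coding exons 2 and 3, printed above, which share 0 such windows; they had 1775 and 1774 reads in the 813 library and 3 and 6 in the NT library. Record 9 matches coding exon 6, which also shares 0 windows, and had 150 reads in the 813 library and 101 in the NT library. Record 10, the last in order as coding exon 7 is, with 5 shared windows, had 6 reads in the 813 library and 9 in the NT library. Records 1 and 2 lie outside the coding sequence that was compared. Whether reads of UGT3A2 are counted in the UGT3A1 records was not tested, so the split of exon reads between the pair is uncertain.

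The exon reads of UGT3A1 were hardly present in its gene count. In the 813 library there were 502 exon reads for each read of the gene count, and in the NT library 31.8, while UGT3A2 had 1.22 and 1.19. Over 8227 genes with at least 500 exon reads in the 813 library the median was 1.23, and 134 of them (1.63%), UGT3A1 included, were at or above UGT3A1. Of these, 78 had a gene count of 0 and so no finite ratio. The 5 of them with the most exon reads were EIF4A1, RPL13AP5, MIF, MIR3654 and HNRNPA1P10, with 16804 to 131399 exon reads, and each overlaps another gene of the table. UGT3A1 overlaps none. Among 5742 genes that overlap no other, 9 were at or above UGT3A1 in the 813 library, itself included. The others are given with their exon reads in the 813 and NT libraries in turn. They were POTEE (3227, 5103), ST13P4 (1504, 1565), PRDM7 (1276, 0), POTEM (793, 1171) and the gene listed as 2-Mar (618, 1027). The rest were RPSAP58 (12794, 16267), RPL13AP20 (19736, 21881) and HNRNPA3P1 (1068, 792). Over 7775 genes with at least 500 exon reads in the NT library, 353 (4.54%) were at or above its ratio there, and so were 46 of the 5386 that overlap no other.

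**Figure D4:**
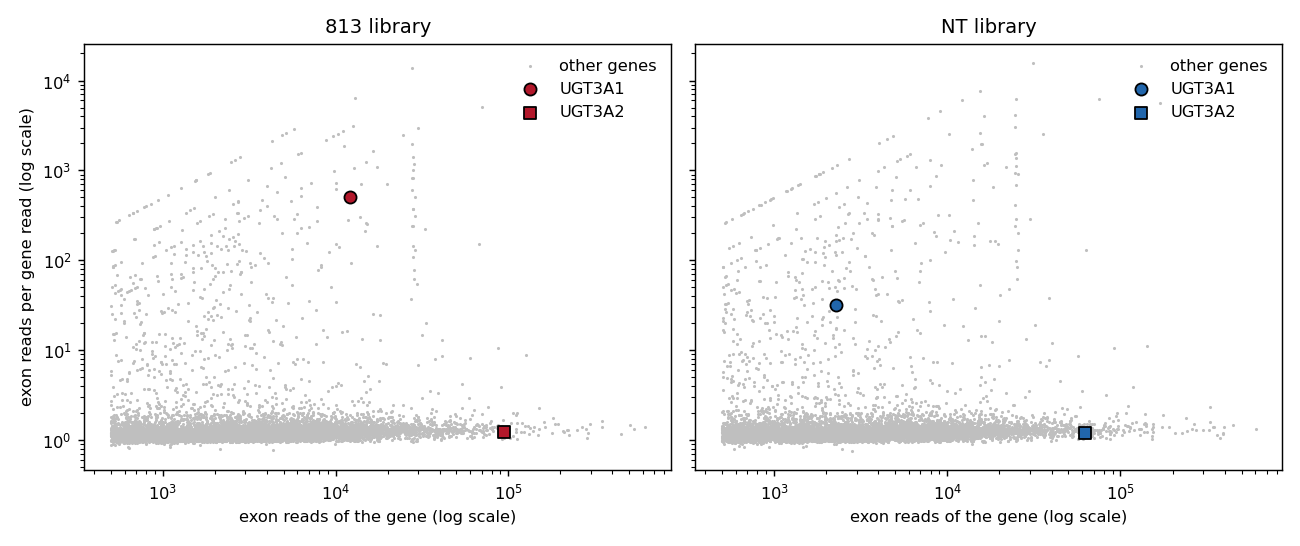
Exon reads per read of the gene count against exon reads (both log scale) for genes with at least 500 exon reads and a gene count above 0, in the 813 library (left) and the NT library (right); 78 and 82 genes with a gene count of 0 are not drawn. UGT3A2 lies in the main band at 1.22 and 1.19, and UGT3A1 far above it at 502 and 31.8.

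Records that departed from the rest of their own gene were ranked among 23390 records with at least 500 reads in the 813 library. That minimum admits only records with reads in the 813 library, records 4 and 5 of UGT3A1 pass it through that library alone, and the pair was chosen on these values, so the ranks are a description. UGT3A1 records 4 and 5 were first and second, with log2 folds 6.63 and 5.82 above that of the gene's other records. The third was a record of DOC2A (chr16:30016835-30017652), 2.33 above, and the fourth one of HIC2 (chr22:21799211-21805750), 2.29 above. The other HIC2 records held only 4 reads in the 813 library and 23 in the NT library. The fifth, in KIAA0754, had no reads in other records to be set against. UGT3A1 records 1 to 3 departed the other way, by -0.82 to -0.81, at ranks 23358 to 23360, and record 6 departed by 0.01. The UGT3A2 records differed from the other records of their gene by -0.14 to 0.06.

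Runs of level counts were uncommon among the genes searched. These were genes with at least 3 records, no overlap between their records and a record of at least 100 reads in the library. A run of at least 3 neighbouring records within 2 reads of each other and with at least 100 reads each was found in 24 of 6370 genes (0.377%) in the 813 library and in 19 of 6017 genes (0.316%) in the NT library. The limit of 2 reads equals the spread of the UGT3A1 level counts in both libraries, and the pair was chosen on its exon values. The place of UGT3A1 in this search was thus given beforehand and is a description only. UGT3A1 was among the 5 genes with such a run in both libraries. Among the genes searched, its run of 5 records was the longest in the 813 library and its 1774 reads the highest level. AARS came next in level, with 3 records at 1494 reads, and GCNT7, COG1 and LOC100506497 had runs of 4 records at 105 to 197 reads. In the NT library the UGT3A1 run of 3 records at 532 reads was the highest level, above 403 reads in ACOT7.

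The annotation gives UGT3A1 separate starts. Records 1 and 2 have the lengths of the first exons of UGT3A1-207, 61 and 91 bases, a transcript that begins upstream and skips record 3, and record 3 has the length of the first exon of UGT3A1-202 and UGT3A1-204. These 3 records lay within 2 reads of one another in each library, so the read counts do not separate the starts. The start regions from RefSeq (GRCh38.p14, 250 bases before to 50 after each start) were searched on both strands for TGTGGT and TGCGGT, forms of the site bound by RUNX proteins, and for GGAAGGAA, a tandem of the core bound by ETS factors such as the FLI1 part of the fusion. The upstream UGT3A1 start held 1 TGTGGT, 224 bases before the start, while the downstream UGT3A1 start and the UGT3A2 start held none of the 3 motifs. Of 35116 start regions of the same length, 13.1% held TGTGGT, 7.29% TGCGGT and 3.67% GGAAGGAA. Either of the RUNX forms was held by 19.6%. The match is shown with its surroundings, the motif in capitals.
UGT3A1 upstream start, chr5:36001211-36001272 in GRCh38.p14, minus strand: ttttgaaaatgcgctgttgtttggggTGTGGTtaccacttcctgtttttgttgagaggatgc

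The downstream UGT3A1 start region and the UGT3A2 start region aligned over 247 columns, 192 of them identical (77.7%), whereas the upstream UGT3A1 start aligned with UGT3A2 over 13 columns only.

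Few or no reads were listed for the wider family. All 20 other UGT genes listed, the UGT1A, UGT2A and UGT2B glucuronosyltransferases and UGT8, the ceramide galactosyltransferase, were in the tables. Of these, 19 had 0 pairs in both libraries, and their exon records also held 0 reads. For the 6 that overlap no other gene, a count of 0 allows up to 0.123 CPM in the 813 library and 0.129 CPM in the NT library. The other 13 overlap another gene, where the gene counts also list abundant genes such as EIF4A1 at 0, so no upper limit is given for them. EIF4A1 differs in its exon records, which held 131399 reads in the 813 library, while those of the 13 held 0 in both libraries. UGT8 had 4 pairs in the 813 library and 5 in the NT library. Genes of the UGT1A locus share their last exons, and how the authors counted reads there is not given in the sources used here.

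The genes that make, turn over or use the donor of UGT3A1, UDP-N-acetylglucosamine, were all measured. Of 12, 1 was called higher and 0 lower, with a median log2 fold of 0.04, against 8.13% called higher, 3.48% called lower and a median of 0.01 over all 12254 genes. The called gene was OGT, which transfers N-acetylglucosamine onto intracellular proteins, with 80.9 CPM in the 813 library and 38.3 CPM in the NT library (log2 fold 1.08, 0.96 to 1.19). GNPNAT1, which acetylates glucosamine phosphate, had 22.1 CPM in the 813 library and 11.8 CPM in the NT library, a log2 fold of 0.91 (0.70 to 1.13) that was not called. The rate-limiting enzyme GFPT1 had a log2 fold of 0.32 (0.16 to 0.48) and the pyrophosphorylase UAP1 one of -0.47 (-0.67 to -0.28).

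For the sugars used by UGT3A2, 8 genes of UDP-glucose, UDP-glucuronate, UDP-galactose and UDP-xylose metabolism were measured. None was called higher and 1 was called lower, against 8.13% and 3.48% of all genes, with a median log2 fold of -0.16 beside 0.01. The lower gene was GALK1, galactokinase, with 51.3 CPM in the 813 library and 108 CPM in the NT library (log2 fold -1.08, -1.18 to -0.98), a call that ended with plain library totals (-0.94) and with the authors' RPKM scaling (-0.95). UGP2, which makes UDP-glucose, had 5.68 CPM in the 813 library and 5.47 CPM in the NT library. UXS1, which makes UDP-xylose, had 28.7 CPM in the 813 library and 19.7 CPM in the NT library, a log2 fold of 0.54 (0.37 to 0.71).

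UDP-sugars reach the lumen of the endoplasmic reticulum and Golgi through carriers of the SLC35 family. Of 6 listed, 4 were measured, with 1 called higher and 0 lower, against 8.13% and 3.48% of all genes, and a median log2 fold of 0.45 beside 0.01. SLC35D1, which carries UDP-glucuronic acid and UDP-N-acetylgalactosamine into the endoplasmic reticulum, had 11.2 CPM in the 813 library and 2.84 CPM in the NT library (log2 fold 1.96, 1.58 to 2.38). Of 18 genes of conjugation and detoxification outside the UGT family, 13 were measured and 0 were called in either direction, against 11.6% of all genes, with a median of -0.10. The most abundant of them, the glutathione transferase GSTP1, had 1063 CPM in the 813 library and 1777 CPM in the NT library, a log2 fold of -0.74 (-0.76 to -0.72).

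None of the measured neighbours of the pair on chromosome 5 was called. Of 12 neighbours in the tables, 5 were measured and 0 called, against 11.6% of all genes, with a median log2 fold of 0.51 beside 0.01 over all genes and 0.47 for UGT3A2. The log2 folds of NADKD1 (0.65), DNAJC21 (0.63), SLC1A3 (0.51) and SKP2 (0.45) had intervals wholly above 0, and NIPBL had -0.28 (-0.81 to 0.24). RANBP3L, under 1 CPM, had 16 pairs in the 813 library and 2 in the NT library. CAPSL, on the 3' side of UGT3A1, had 0 pairs in both libraries, and LMBRD2, upstream of UGT3A2, had 15 pairs in the 813 library and 11 in the NT library. SKP2, a subunit of a cell cycle ubiquitin ligase and the nearest listed neighbour above 1 CPM, had 55.2 CPM in the 813 library and 40.5 CPM in the NT library (log2 fold 0.45, 0.33 to 0.57).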

How the data were processed

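Poly(A) RNA from 2 libraries of A673 cells, 1 per group, was deposited as a gene table and an exon table each. Per the submitters' processing notes, CASAVA 1.9, TopHat2 2.0.6, HTSeq and build hg19 were used; their roles, the annotation and the strand setting are not given in the sources used, so reads of overlapping or antisense genes are uncertain. The authors deposited raw counts per gene and per exon record beside RPKM, per the file headers. Gene counts are all even (0 odd values), while 36.4% and 35.5% of exon counts are odd. Both were therefore divided by 2 for CPM, folds and the intervals of these. Exon reads are printed as deposited, and shares of exon reads and their Clopper-Pearson intervals use them undivided. After dropping 46 repeated gene rows, sizes were scaled by TMM (edgeR 4.0.16, R 4.3.3; factors 1.05 for the 813 library and 0.954 for the NT library). Log2 folds, the 813 library over the NT library, use a prior of 0.5 pairs, with exact 95% conditional binomial intervals (scipy 1.17.1). The floor for 0 pairs is 3 pairs per library. The code was tested on simulated counts with known folds. The genes and lists were chosen with earlier results of these data known. Named genes were the pair, RUNX3, other UGT genes at 1 CPM, up to 4 called genes per list, and the 5 genes and 5 records ranked highest in the exon comparisons; other genes in the text were chosen after their values were seen. Sequences come from GENCODE release 29 and RefSeq; no sequence was read by hg19 coordinates. Alternatives were plain totals, DESeq2 1.42.0 size factors, the authors' RPKM scaling, other priors and filters.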

Additional observations from a re-analysis of the deposited data

How the results depend on the processing

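With 1 library per group there is no replicate to leave out, and no interval covers the spread between cultures. No paired analysis was possible because each group has 1 library. Relative to TMM, plain library totals raised each log2 fold by 0.14. The UGT3A1 gene fold lost its call with plain totals (-1.49) and with the authors' RPKM scaling (-1.49). The UGT3A2 gene fold was 0.61 with plain totals and 0.60 with the RPKM scaling, uncalled in both. Summed over exon records, UGT3A1 had 2.46 with plain totals, 2.45 with the RPKM scaling, 2.46 with exon table totals and 2.14 without its level records, a set chosen after seeing the data, and stayed called throughout. The UGT3A2 sum was 0.65, 0.64 and 0.66 with the first 3 of these and was called in none. Over the 17 single exon records and 102 alternative values, 0 reversed, 0 calls changed and 21 lay outside the first interval. Exon records called higher numbered 3536, and 2008 with at least 200 reads; with exon table totals 4896 were higher and 1624 lower. The median of the UDP-N-acetylglucosamine list was 0.18 with plain totals and 0.16 with the RPKM scaling, and GNPNAT1 was called with both (1.04), that of the UDP-glucose list -0.029 with plain totals and -0.035 with the RPKM scaling, and that of the carriers 0.39 with plain totals and 0.58 with the RPKM scaling. The carrier median fell with plain totals although each fold rose, because SLC35A3 then reached 1 CPM and joined the measured carriers. With TMM it had 0.98 CPM in the 813 library and 0.99 CPM in the NT library. Higher calls made up 996 of 1423 genes with TMM, against 1330 higher and 302 lower with plain totals.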
